A study of Mus musculus with 14 samples.

Results

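Oxysterols are oxidised forms of cholesterol, and one of them is a guidance signal for B cells. Ch25h, a hydroxylase of the cholesterol side chain, makes the first product, and Cyp7b1, a hydroxylase of the sterol ring, turns it into the ligand. Hsd3b7, a sterol dehydrogenase, inactivates the ligand, and Gpr183 (also called Ebi2) is the receptor through which B cells, T cells and dendritic cells follow it. Cyp27a1 is a mitochondrial hydroxylase that makes another side-chain oxysterol and serves bile acid synthesis. In spleen and lymph node, stromal cells are a known source of the ligand, and activated B cells use the receptor to reach the outer edge of the follicle.

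The members were taken from the array annotation as probe sets whose single gene symbol is one of these 5 genes. This gave 6 probe sets of 4 genes, out of 36701 probe sets and 15964 singly named genes on the 3 array sets once array controls were left out. Ch25h had 1, Hsd3b7 had 1 and Cyp7b1 had 2 on array set A, and Cyp27a1 had 2 on set B. No probe set bore the symbol Gpr183 or Ebi2, so the receptor was not analysed here, and set C held no member.

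RNA came from primary mouse spleen cells, either depleted of follicular dendritic cells (FDC-D) or enriched for them (FDC-E). These stromal cells of the follicle display antigen to B cells. The labels give no strain, age, number of animals, treatment or method of separation. Set A held FDC-D samples 1 and 2 and FDC-E samples 1, 2 and 3, set B held FDC-D 1 and 2 and FDC-E 2 and 3, and set C the same 5 samples as set A.

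Array medians of the intensity lay between 244 and 250.8 on the FDC-D and between 264.7 and 279 on the FDC-E arrays of set A, and between 200.2 and 208.8 on all arrays of set B. Separate animals are not named for the samples of a group, so p-values cover the spread among these samples only, and that spread may be technical. Both fractions are mixtures. Among markers above the level asked for the test in both groups, 7 of 9 for FDCs rose in FDC-E, but so did 11 of 11 for endothelium, while Ptprc (CD45, carried by leukocytes) fell 3.2-fold (limma, adjusted p = 5.85e-05). In such bulk samples, fewer cells of a type and less RNA per cell cannot be told apart.

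The windows upstream of Ch25h and Hsd3b7 are shown because the enriched arrays lay above the depleted ones for these alone among the 6 probe sets. Of the members, 4 had an entry in the RefSeq promoter table of build GRCm38.p6 (Ch25h, Hsd3b7, Cyp27a1 and Gpr183). Each sequence gives the 250 bases before the gene start, on the strand of the gene, at chr19:34475149-34475398 on the minus strand for Ch25h and at chr7:127800359-127800608 on the plus strand for Hsd3b7. Capitals mark letters that match 1 of 9 motifs searched on both strands.
Ch25h: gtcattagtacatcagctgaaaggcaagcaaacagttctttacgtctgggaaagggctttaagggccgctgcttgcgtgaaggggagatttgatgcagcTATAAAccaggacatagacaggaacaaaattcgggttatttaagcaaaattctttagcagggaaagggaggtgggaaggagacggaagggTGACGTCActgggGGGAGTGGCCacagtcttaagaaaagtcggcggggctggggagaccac
Hsd3b7: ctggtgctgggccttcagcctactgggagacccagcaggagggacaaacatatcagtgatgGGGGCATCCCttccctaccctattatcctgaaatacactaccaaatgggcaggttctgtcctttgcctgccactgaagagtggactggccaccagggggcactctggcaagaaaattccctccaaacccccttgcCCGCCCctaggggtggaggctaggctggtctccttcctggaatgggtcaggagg

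The Ch25h window held TGACGTCA, the letters of the cyclic AMP response element that Atf3 and related factors bind, starting 61 bases before the gene start. Of all 32817 windows of this length, 1.55% held these letters. It also held the kappa B core (GGGA, any 4 bases, then CC) at 48 bases (17.6% of all windows) and TATAAA at 151 bases (12.4%). The Hsd3b7 window held the kappa B core on the opposite strand, starting 189 bases before the gene start, and the GC box GGGCGG on the opposite strand at 54 bases (32.7% of all windows). The other letters searched were the AP-1 letters TGANTCA (6.75%), GAAA and GAAA with any 2 bases between (2.97%), CCAAT (33.8%), AGGTCA (14%) and TCACNCCAC (1.05%), and neither window held any of these. No motif overlapped another in either printed window. A match of letters is a description and shows no binding.

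Ch25h, the entry enzyme of the pathway, was dim on every array and higher in FDC-E. Its probe set read 103.2 and 105.8 on the FDC-D arrays, and 173.3, 175.4 and 187.5 on FDC-E 1, 2 and 3. All 3 enriched arrays lay above both depleted ones, as they did for 29.8% of all probe sets of set A. The mean intensity was 104.5 ± 1.8 (SD, n = 2) against 178.8 ± 7.67 (SD, n = 3), a ratio of 1.71.

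These values lay below the level asked of a probe set for the test, the 40th percentile of an array, reached on 2 or more arrays. That level was 198.7, 197.3 and 190.5 on the enriched arrays, above the Ch25h values, so Ch25h was not among the 7895 probe sets tested on set A. When all 12422 probe sets were fitted, Ch25h rose with a log2 fold change of 0.47 ± 0.06 (SE), a 1.38-fold change with a 95% interval from 1.25 to 1.53 (limma, adjusted p = 0.000516). In that fit 17.1% of all probe sets rose. The fold is smaller than the ratio of the means because it is taken on log2(intensity + 88.5), which understates changes of dim probe sets.

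Cyp7b1, which completes the ligand, was measured by 2 probe sets, and neither passed. The brighter one read 601.6 and 625.9 on FDC-D and 625, 524.3 and 616.3 on FDC-E 1, 2 and 3. FDC-E 2 lay below every other array, and the other enriched values lay within the depleted range. Its mean was 613.8 ± 17.2 (SD, n = 2) against 588.5 ± 55.8 (SD, n = 3), with a log2 fold change of -0.06 and a 95% interval of the fold from 0.836 to 1.11 (limma, adjusted p = 0.664). Without FDC-E 2 the log2 fold change was 0.014.

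The dimmer Cyp7b1 probe set read 292.3 and 285.7 on FDC-D and 393, 288.5 and 332.4 on FDC-E 1, 2 and 3. FDC-E 1 was the highest array, and FDC-E 2 lay between the depleted values. The log2 fold change was 0.17, and the 95% interval of the fold ran from 0.954 to 1.33 (limma, adjusted p = 0.236). Its name carries the suffix f, which marks a probe set that the array maker did not hold to be specific to 1 gene, so its reading of Cyp7b1 is less certain. Over both probe sets, the intervals leave room for a fall to 0.836-fold or a rise to 1.33-fold.

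Cyp27a1, the mitochondrial enzyme, was bright at 1 probe set on set B and did not pass. It read 1126 and 1093 on FDC-D and 1116 and 1163 on FDC-E 2 and 3. The groups overlapped, with means of 1110 ± 23.9 (SD, n = 2) and 1140 ± 33.7 (SD, n = 2). The log2 fold change was 0.04, with a 95% interval of the fold from 0.928 to 1.13 (limma, adjusted p = 0.71), on an array set where 36.5% of the 7786 tested probe sets passed. With arrays scaled to a common median the sign turned, at -0.0085. The other Cyp27a1 probe set read 8.27, 11.6, 13.1 and 10.8 on FDC-D 1 and 2 and FDC-E 2 and 3, far below the level asked for the test, so it gives no reading of a change.

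Hsd3b7, the enzyme of ligand breakdown, rose in FDC-E. Its probe set read 777.4 and 773.4 on FDC-D and 1120, 982.4 and 1024 on FDC-E 1, 2 and 3. Every enriched array lay above both depleted arrays, FDC-E 1 highest. The mean rose from 775.4 ± 2.85 (SD, n = 2) to 1042 ± 70.7 (SD, n = 3), a difference of 34.4%. The log2 fold change was 0.39 ± 0.08 (SE), a 1.31-fold rise with a 95% interval from 1.15 to 1.49 (limma, adjusted p = 0.0054).

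This was the 1 of 4 tested member probe sets that passed. On set A 41% of tested probe sets passed, 23.1% as rises, and in 34.7% every enriched array lay above every depleted one. The share of members is therefore near that of all probe sets. The Hsd3b7 call was lost without FDC-D 1 (limma, adjusted p = 0.0533) or FDC-D 2 (adjusted p = 0.0563), where 1 depleted array is assumed to vary like the enriched ones, although the log2 fold changes were 0.39 and 0.38. Taken alone, an exact permutation test of Hsd3b7 or Ch25h gave p = 0.1 (two-sided), the smallest that 2 against 3 arrays allow.

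**Figure D1:**
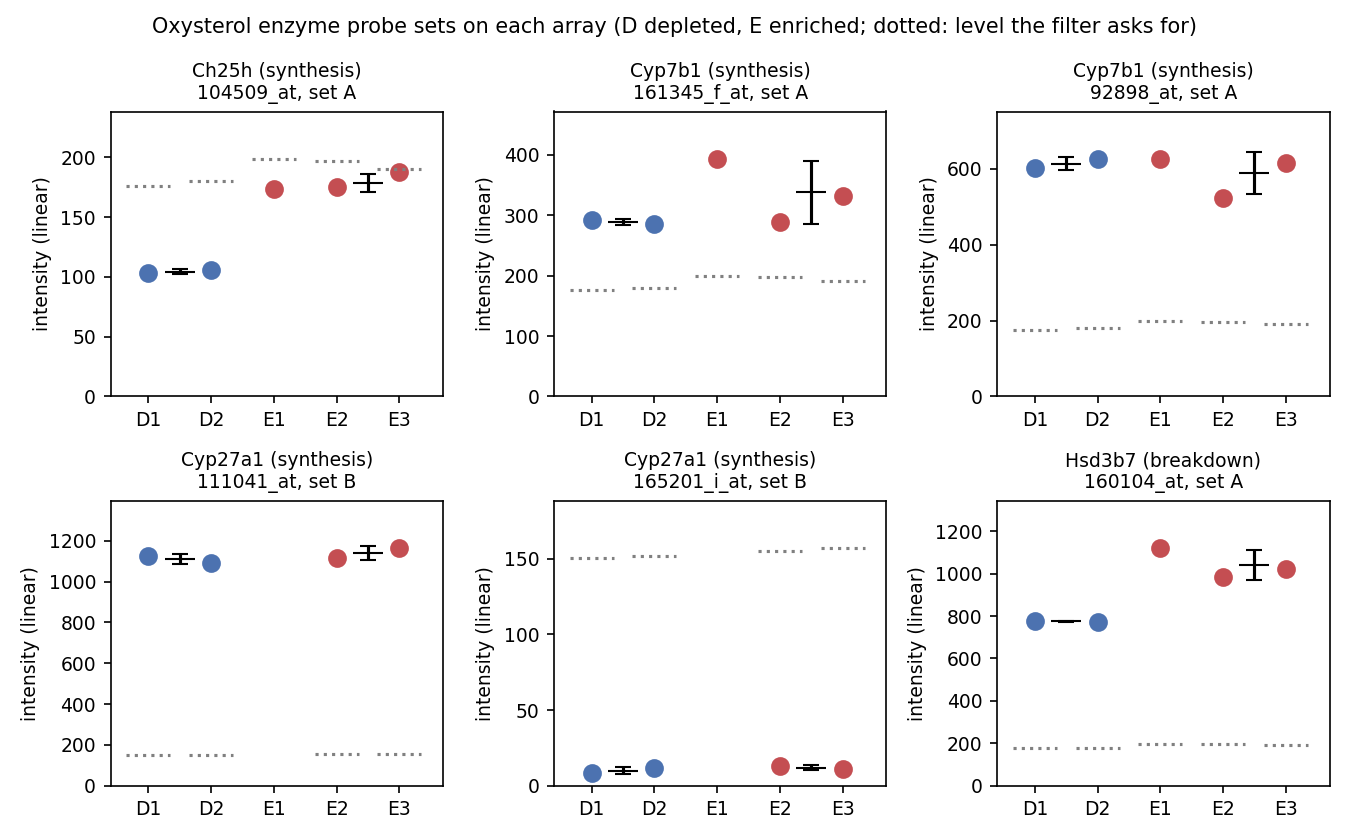
Intensity (linear, vertical axis) of the 6 member probe sets on each array, with FDC-D arrays in blue, FDC-E arrays in red, black bars for the group mean and SD, and dotted lines for the level asked for the test. The Ch25h and Hsd3b7 values of the 3 enriched arrays lie above both depleted arrays, and the other 4 probe sets overlap.

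The sign and size of the set A changes were read against the shift of all probe sets. The median log2 fold change of the tested probe sets was 0.02 on set A as deposited, -0.07 after quantile normalization and -0.09 with arrays scaled to a common median. The split of calls moved with it. Rises were 56.3% of the calls as deposited, 41.5% after quantile normalization and 38.9% after median scaling. Relative to that median, Hsd3b7 stood at 0.37, 0.35 and 0.35 in these 3 settings, and Ch25h at 0.45, 0.47 and 0.48. Cyp7b1 stood at -0.08 in all of them at the brighter probe set and at 0.15 at the dimmer one.

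**Figure D2:**
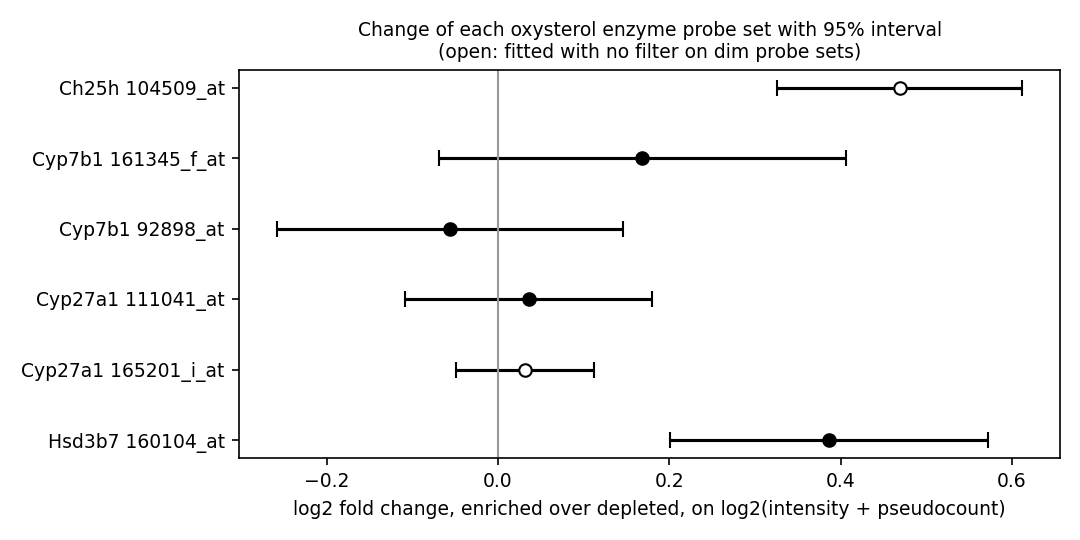
Log2 fold change of FDC-E over FDC-D (horizontal axis) of each member probe set with its 95% interval from limma, as filled points for tested probe sets and open points for probe sets fitted with no filter. The intervals of Ch25h and Hsd3b7 lie above 0, and those of Cyp7b1 and Cyp27a1 include 0.

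Whether breakdown and synthesis changed by unequal amounts was asked within arrays, from the log2 difference between 2 member probe sets. Among tested members this gave 2 pairs. The difference between Hsd3b7 and Cyp7b1 was higher in FDC-E by 0.44 at the brighter Cyp7b1 probe set and by 0.22 at the dimmer one, and in both pairs every enriched array lay above both depleted ones. The exact permutation p was 0.1 for each (two-sided, also 0.1 adjusted over the pairs), the smallest that 2 against 3 arrays allow, so neither difference could reach the threshold.

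With Ch25h included there were 5 pairs on set A. On the log2 scale of the fits, the change of Ch25h exceeded that of Hsd3b7 by 0.08, and the arrays of the 2 groups overlapped. The exact permutation p was 0.4 (two-sided, also 0.4 adjusted over the 5 pairs). The constant added on that scale, the pseudocount, understates the change of dim Ch25h more than that of bright Hsd3b7. On plain intensity the ratios of the group means were 1.71 for Ch25h and 1.34 for Hsd3b7. The overlap therefore holds for the scale with the pseudocount, and this pair was not tested without it. With the pseudocount, the change of Ch25h exceeded that of Cyp7b1 by 0.53 at the brighter probe set (exact p = 0.1, adjusted p = 0.167). At the dimmer one it did so by 0.3 (exact p = 0.2, adjusted p = 0.25). The order of change on set A was thus Ch25h, Hsd3b7 and Cyp7b1 on this scale, with no neighbouring pair passing.

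The probe sets most like each tested member were found by the root mean square difference of log2 values over the arrays, centred on the depleted mean. Over the 5 arrays of set A, Hnrnpl, a splicing regulator gene (log2 fold change 0.38), lay nearest to Hsd3b7 at 0.0236 log2 units, followed by Tead2, a transcription factor gene, at 0.0258 and the tubulin gene Tubb5 at 0.027. The median over 6755 probe sets was 0.33. For Cyp7b1 the nearest were Dct, Zfp59 and Tlx3 at the brighter probe set and Twsg1, Selp and St8sia5 at the dimmer one, so its probe sets shared no neighbour among these. For Cyp27a1 over the 4 arrays of set B they were Snx19, A230070E04Rik and Gm38457. With 4 or 5 arrays in 2 groups, such likeness is loose.

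Partners that feed electrons to the P450 enzymes among the hydroxylases were measured beside them. Of 5 such genes listed, 3 had a probe set. Of 3 tested electron donor genes 2 rose and 1 did not pass, where 19.2% of all 12267 tested genes rose and 14.5% fell. Cyb5a, the microsomal cytochrome that can serve P450 enzymes, had a mean of 690.5 ± 69.1 (SD, n = 2) in FDC-D and 1011 ± 38.7 (SD, n = 3) in FDC-E, a 1.41-fold rise (limma, adjusted p = 0.0017). Another Cyb5a probe set, on set B, did not pass, with a log2 fold change of 0.05. Fdx1, the mitochondrial ferredoxin that reduces Cyp27a1, stood at 302.8 ± 9.25 (SD, n = 2) against 445.4 ± 39.2 (SD, n = 3), a 1.36-fold rise (limma, adjusted p = 0.00269). Cyb5r3, the reductase gene of that cytochrome, had a log2 fold change of 0.21 on set C (adjusted p = 0.0786), where its probe set ranked highest in level, but its probe set on set A rose 2.51-fold (adjusted p = 1.7e-05).

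Of 20 other enzymes of oxysterol and bile acid chemistry with a probe set, 12 were bright enough to test. Of these 2 rose and 10 did not pass, with a median log2 fold change of 0.1 against 0.02 over all genes. Among those 10, Hsd17b4 and Scp2 each had another probe set on set A that rose. These rises were 1.39-fold (limma, adjusted p = 0.00166) and 1.27-fold (adjusted p = 0.00851). Abcd3, a peroxisomal transporter that takes up bile acid precursors, rose 1.39-fold (limma, adjusted p = 0.000797). Hsd11b1, which acts on glucocorticoids and on ring-oxidised sterols, stood at 617.6 ± 19.8 (SD, n = 2) against 796.2 ± 64.4 (SD, n = 3), a 1.25-fold rise (limma, adjusted p = 0.0153). The Hsd11b1 call was lost after either other scaling, with replicate numbers entered as a block, and without FDC-D 1, FDC-D 2 or FDC-E 3. In each of these settings 1 gene of the list rose, and after either other scaling 1 fell. Cyp7a1 and Cyp39a1, which hydroxylate the same ring position as Cyp7b1 in liver, lay below the level asked for the test.

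Genes that sense or carry oxysterols gave 7 rises and 13 that did not pass among 20 tested, with a median log2 fold change of 0.07. Of the 18 above the level asked for the test in both groups, 6 rose. Rora counts as not passed, but its other tested probe sets rose, 1.66-fold on set A and 1.64- and 1.68-fold on set B. Nr1h3, the gene of the oxysterol receptor LXR alpha, stood at 287.5 ± 9.83 (SD, n = 2) in FDC-D and 897 ± 56.7 (SD, n = 3) in FDC-E, a 2.62-fold rise (limma, adjusted p = 3.02e-06). Rxra, its partner receptor, rose 1.79- and 1.21-fold at its 2 probe sets on set B, while its 3 probe sets on sets A and C did not pass. Insig1, which binds oxysterols and holds back cholesterol synthesis, rose 1.49-fold on set B, and Scap, which it retains, 1.37-fold. Insig1 was above the level asked for the test on FDC-E arrays alone, so it had to be higher there. After median scaling 4 of the 20 rose and 1 fell. The count of rises was 4 without FDC-D 1, 4 without FDC-D 2 and 3 without FDC-E 3, and 1 fell without FDC-E 1.

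Of 14 tested target genes of LXR 8 rose, 1 fell and 5 did not pass, with a median log2 fold change of 0.35. Nr1h3, which rose, and Srebf1, which did not pass, stand among the sensors too and count in both lists. Of the 13 above the level asked for the test in both groups, 7 rose and 1 fell. Apoe, a cholesterol carrier, rose 2.77-fold on set A, while another on set C stood at -0.17 on the log2 scale (adjusted p = 0.0626). Mertk, a receptor for dying cells, rose 1.77-fold on set B. Scd1, a fatty acid desaturase, went from an intensity of 4118 ± 16.4 (SD, n = 2) down to 1562 ± 257 (SD, n = 3), a 2.57-fold fall (limma, adjusted p = 6.25e-05). A further Scd1 probe set fell 2.79-fold, and the last of the 3 did not pass. Of 10 tested SREBP2 targets, genes of cholesterol synthesis and handling that oxysterols restrain, 4 rose, 1 fell and 5 did not pass. Of the 8 above that level in both groups, 2 rose and 1 fell. The fall was that of Mvk, 1.18-fold (limma, adjusted p = 0.035), and another Mvk probe set did not pass (adjusted p = 0.255). Nsdhl counts as not passed, but a further probe set on set A fell 1.21-fold (adjusted p = 0.0129), and another there did not pass. Stard4, a sterol carrier, rose 2.48-fold on set B, Hmgcs1 1.6-fold and Fdps 1.32-fold. Hmgcs1 and Insig1 were above the level on FDC-E arrays alone, so they had to be higher there. The rise of Insig1 counts among the sensors too.

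**Figure D3:**
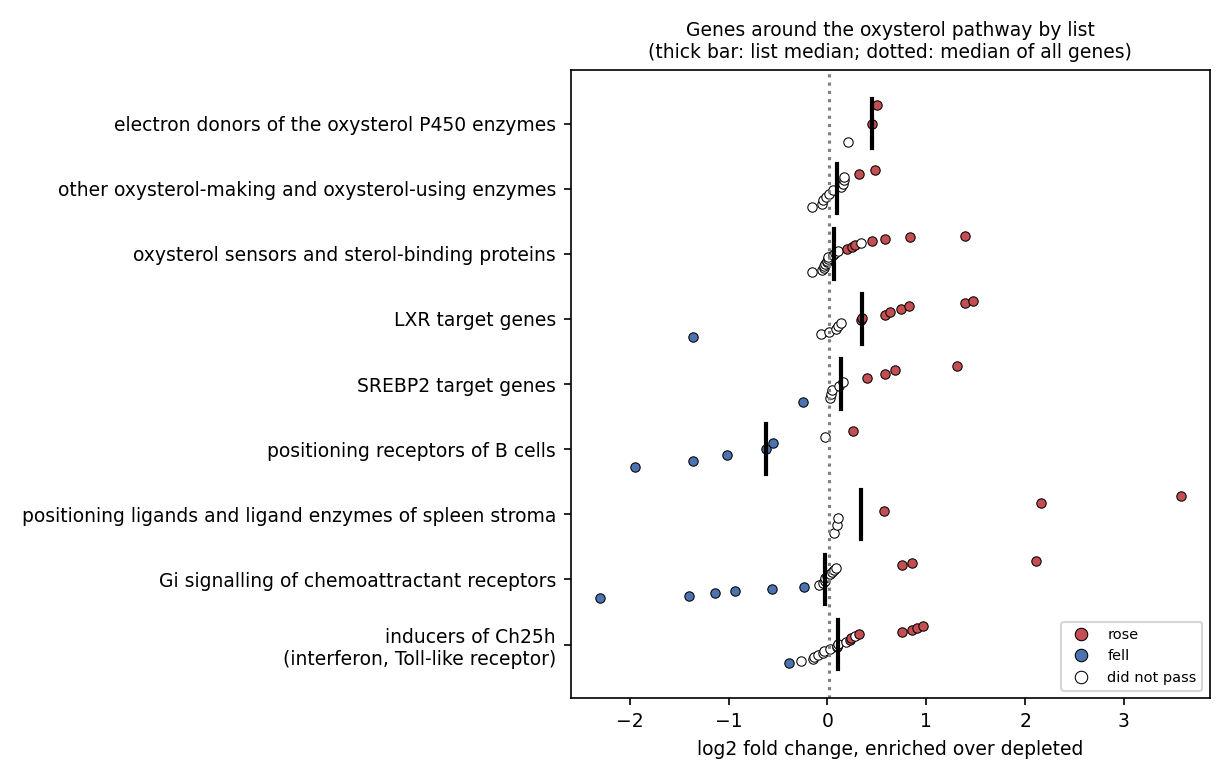
Log2 fold change of FDC-E over FDC-D (horizontal axis) of each tested gene in the lists around the pathway, coloured by call, with a thick bar at the list median and a dotted line at the median of all genes. The positioning receptors have the lowest median at -0.62, and Nr1h3 and Apoe have the largest rises among the tested sensors and LXR targets.

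With Gpr183 not measured, the other receptors that position B cells were read. Of 7 tested 5 fell, 1 rose and 1 did not pass, with a median log2 fold change of -0.62. Cxcr4, the receptor for Cxcl12, had a mean intensity of 1531 ± 491 (SD, n = 2) in FDC-D and 325.8 ± 56.2 (SD, n = 3) in FDC-E, a 3.84-fold fall (limma, adjusted p = 6.02e-05). Ccr7 and Cxcr5, which pull B cells toward T cell zone and follicle and act beside Gpr183 in placing them, fell 2.57- and 2.03-fold. S1pr4 fell 1.54-fold and Ccr6 1.46-fold. S1pr3, a sphingosine phosphate receptor found on endothelium, rose 1.2-fold on set B, a call lost after median scaling and without FDC-D 1, FDC-D 2 or FDC-E 2, and its probe set on set A did not pass. S1pr2, which confines germinal centre B cells, had a log2 fold change of -0.02 (adjusted p = 0.858), and its second probe set did not pass either.

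Among ligand and ligand enzyme genes of spleen stroma there were 3 rises and no falls in 6 tested, and 3 did not pass. These 6 include Tnfsf13b, which is not a ligand of the receptors above and did not pass. Of the 5 above the level asked for the test in both groups, 2 rose. Sphk1 counts as not passed, but its probe set on set A rose 1.62-fold (limma, adjusted p = 0.000132). Cxcl13, the ligand of Cxcr5, had a mean intensity of 32.4 ± 9.11 (SD, n = 2) in FDC-D and 1358 ± 192 (SD, n = 3) in FDC-E. Its depleted mean lay below the pseudocount of 88.5, which therefore sets the size of its fitted fold, and none is given. Cxcl13 was above the level asked for the test on FDC-E arrays alone, so it had to be higher there. The brightest Cxcl12 probe set rose 4.48-fold, and the one on set B 1.25-fold. Its other probe sets on set A also rose, from depleted means of 38.8 and 40.8 that lay below the pseudocount too. Sgpl1, the lyase that degrades sphingosine phosphate, rose 1.48-fold (limma, adjusted p = 0.00588), a call lost without FDC-D 1. Gi signalling genes, on which Gpr183 and chemokine receptors depend, gave 3 rises, 6 falls and 9 that did not pass among 18 tested. Dock2, an activator of lymphocyte migration, fell 4.94-fold on set C, the receptor kinase gene Grk6 2.63-fold and Rgs2 2.2-fold. Rgs16, a brake on Gi signals, rose 4.33-fold. Other probe sets of Arrb1, Gnai2 and Rgs10 rose and another of Rapgef1 fell, though these genes count as not passed.

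Ch25h is known as a gene induced by interferon and Toll-like receptors and held down by Atf3. Of 20 tested genes of the interferon, Toll-like, TNF and lymphotoxin receptor pathways, Atf3 included, 7 rose, 1 fell and 12 did not pass, with a median log2 fold change of 0.1, and after either other scaling 4 rose, with 3 falls after quantile normalization and 4 after median scaling. Atf3 rose 1.87-fold (limma, adjusted p = 0.000608), Tnfrsf1a 1.95-fold, Tlr2 1.81-fold on set C and Irf1 1.69-fold. Of the rises, Tnfrsf1a, Ltbr and Relb belong to the TNF and lymphotoxin pathways, and Tnfrsf1a and Ltbr stand among the FDC markers too. Other probe sets of Ifnar2 and Ticam1 rose, 1.66- and 1.15-fold, and others of Tyk2 and Ifnar1 fell, 1.46- and 1.22-fold. These genes count as not passed. Another Relb probe set did not pass (limma, adjusted p = 0.108). The Irf1 call was lost without FDC-D 2. The count of rises was 4 without FDC-D 1 or FDC-E 3 and in the fit with replicate blocks, and 3 without FDC-D 2, and without FDC-D 1 there were 2 falls.

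The cell type markers that moved with Ch25h and Hsd3b7 were large in number. Of 18 tested endothelial markers, 7 were above the level asked for the test on FDC-E arrays alone, so they had to be higher there. The 11 that were above it in both groups all rose. The summed intensity of the 10 on set A went from 2395 to 2543 on FDC-D up to 18620 to 20867 on FDC-E. Of 13 tested markers of reticular fibroblasts and smooth muscle 7 were above that level in both groups, and 6 of these rose, with sums of 3220 to 3262 against 12644 to 14334 for the 12 tested on set A. For macrophages it was 17 of 19 tested markers, and 12 of these rose, with sums of 12162 to 14396 against 26545 to 30002 for the 14 tested on set A. For the 11 FDC markers on set A the sums were 6089 to 6992 against 23397 to 27787. Of 13 tested FDC markers, 4 were above the level on FDC-E arrays alone. The endothelial, fibroblast, macrophage and FDC sums include such markers, so the filter itself adds to their difference between groups. The part of these cell types in the Ch25h and Hsd3b7 changes was not tested.

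Most tested markers of lymphocytes, cells known to carry Gpr183, fell. Of 16 tested B cell markers 15 fell, with sums of 33259 to 33515 on FDC-D and 11075 to 14019 on FDC-E for the 11 on set A. Of 15 tested T cell markers 6 were above the level asked for the test on FDC-D arrays alone, and of the 9 above it in both groups 7 fell. Of 9 NK cell markers 7 were above it in both groups, and 6 of these fell. Of 10 dendritic cell markers 3 rose and 3 fell. Among markers above it in both groups, 4 of 8 for neutrophils fell, 3 of 5 for megakaryocytes and platelets rose, 2 of 7 for erythroid cells rose, and of 6 for plasma cells 1 rose and 3 fell. No tested marker was listed at 0 on all arrays. Their part in the falls of the positioning receptors was not tested.

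**Figure D4:**
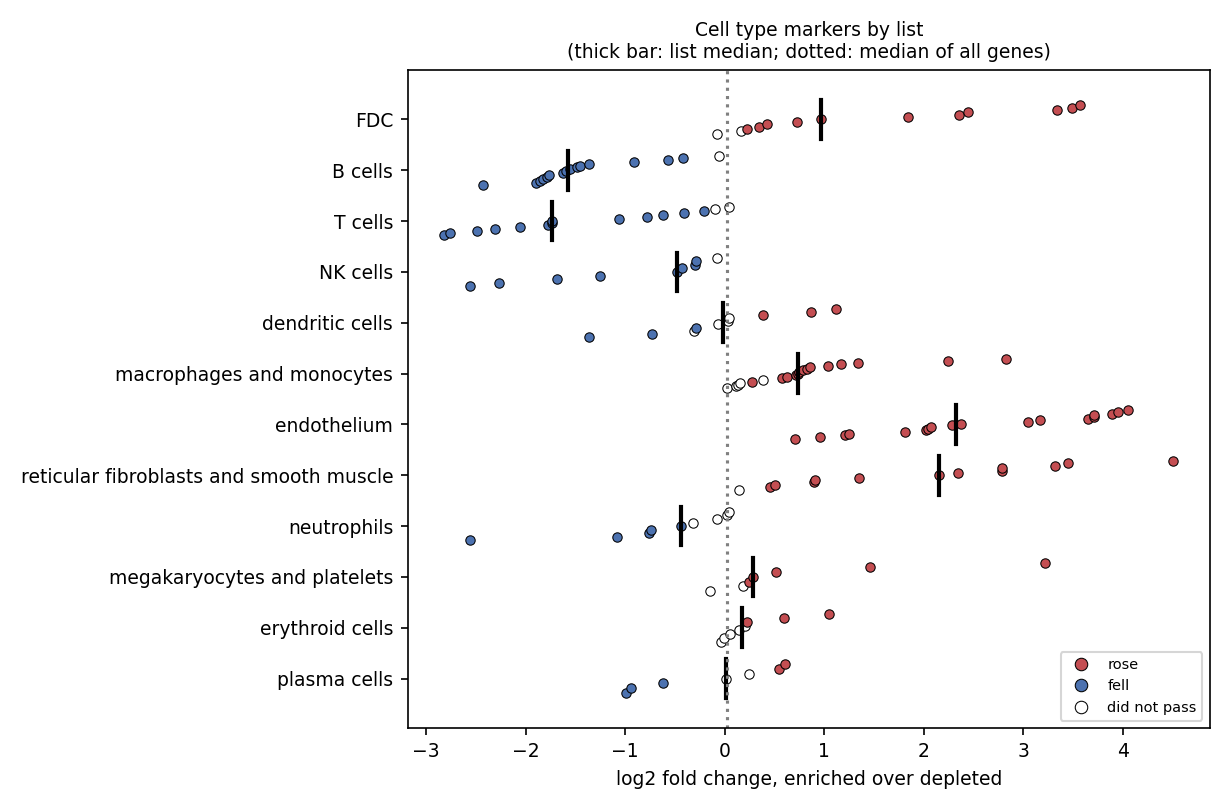
Log2 fold change of FDC-E over FDC-D (horizontal axis) of each tested cell type marker by list, coloured by call, with a thick bar at the list median and a dotted line at the median of all genes. Endothelial markers have a median of 2.33 and T cell markers one of -1.73, and the endothelial list includes 7 genes above the level asked for the test in FDC-E alone, the T cell list 6 in FDC-D alone.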

How the data were processed

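Each of the 3 tables the authors deposited holds linear intensity, summarised to a single value for a probe set on an array. Their summarisation, background correction and scaling: not given in the sources used here. FDC-E 2 on set A lacked values for 893 probe sets, none of them a member, and these were fitted on the remaining arrays. Names came from the array annotation of each set, updated by Entrez identifier to the GRCm38.p6 gene table. Leaving controls aside, 10833, 10581 and 7717 probe sets on A, B and C had 1 symbol. The build used for the arrays is unknown, so genes carry no positions.

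Each set was fitted alone with limma 3.58.1 in R 4.3.3 (eBayes with trend) on log2(intensity + pseudocount), two-sided, with Benjamini-Hochberg adjustment within the set and a threshold of 0.05. The pseudocount was the 20th percentile of the positive values, 88.5, 81.2 and 53.1 on A, B and C. Probe sets entered the test where 2 or more arrays exceeded their own 40th percentile. In list counts, a gene was represented by its tested probe set of highest rank in level within its array set, called the brightest. Another probe set of a gene counted as not passed may therefore have passed. The code was tested on simulated data. The number of arrays limits the precision.

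The naming rule took all members, all passing enzymes, electron donors and positioning receptors, up to 4 passing genes of each other list by size of change, the 3 nearest probe sets of each tested member, and Ptprc and Actb as references. Of marker lists, counts, summed intensities and medians are given, and Cxcl13, Tnfrsf1a and Ltbr are named through other lists that hold them. A gene above the level for the test in 1 group alone owes its place in the test to that group. Besides the marker lists, this held for 2 tested sterol sensors, 1 LXR target, 2 SREBP2 targets and 1 ligand gene in FDC-E, and for 1 other enzyme in FDC-D. Cyb5r3, S1pr2, Ltbr, Relb, Cyp7a1, Cyp39a1 and further probe sets of named genes were added after their values were seen. The same holds for Hsd17b4, Scp2, Rora, Sphk1, Tnfsf13b, Arrb1, Gnai2, Rgs10, Rapgef1, Srebf1, Mvk, Nsdhl, Ifnar1, Ifnar2, Ticam1 and Tyk2. Actb had a log2 fold change of -0.11 (limma, adjusted p = 0.361). The members and lists were chosen with earlier results of these data known. Alternatives changed the pseudocount (10th percentile), filter, normalization, replicate block and arrays used. Background correction could not be varied from summarised values.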

Additional observations from a re-analysis of the deposited data

How the results depend on the processing

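Hsd3b7 kept its direction in all settings run, and passed in all except those without FDC-D 1 or FDC-D 2. Leaving out each array gave log2 fold changes of 0.34 to 0.42. With the replicate number as a block it was 0.40 (limma, adjusted p = 0.014). The untested log2 difference of Ch25h was 0.56 with the pseudocount at the 10th percentile, 0.39 after quantile normalization and 0.39 after median scaling, and 0.47 with no filter, where it passed. The combination of no filter with each other choice was added after seeing the data, and there Ch25h passed throughout, with adjusted p from 0.000299 to 0.0124. The brighter Cyp7b1 probe set ranged from -0.096 to 0.014 as arrays were left out. Its neighbours Dct (-0.094 to 0.012), Zfp59 (-0.088 to 0.026) and Tlx3 (-0.105 to 0.020) also turned sign, all without FDC-E 2. The brighter Cyp27a1 probe set was -0.0085 after median scaling. Of 844 values of 90 named genes under alternatives, 811 kept direction and side of the threshold. The cause of these changes was not tested.

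Passing probe sets numbered 3240 on set A and 1341 on set C, and between 2028 and 3670 and between 808 and 1315 when arrays were left out. The lowest counts came without FDC-D 1 on set A (2028), FDC-D 2 on set A (2038), and FDC-D 2 (808) and FDC-E 3 (882) on set C. With 1 depleted array, 9 of 15 T cell markers were bright enough to test and 6 fell, and 7 of 9 NK cell markers were tested and 4 fell. FDC markers gave 7 rises without FDC-D 1, and platelet markers 3 after either other scaling or without FDC-D 1, FDC-D 2 or FDC-E 3. The SREBP2 fall was lost with the block and in all single-array omissions except that of FDC-E 1. The replicate block left 2812 calls on set A and 865 on set C. After the mean of each group was taken off, same-numbered samples correlated at 0.033 and 0.061 on set A and -0.31 and -0.15 on set C. The 1 such pair on set B stood at 0.15. With 2 depleted arrays, the deviations of FDC-D 1 and FDC-D 2 mirror each other, so these values are not independent. Not every pair exceeded 0.1, so the numbers were not taken as pairs. On set B no paired analysis was possible because the groups share 1 number.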
